A study of Mus musculus with 16 samples.

Results

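Pressure overload was examined in mouse hearts that overexpressed Cardinal, a heart-enriched long noncoding RNA listed in the gene annotation as Gm12295. The 4 mice of the AAV9-Cardinal TAC group (replicates 1, 4, 5 and 6) were compared with the 4 mice of the AAV9-Cardinal sham group (replicates 1 to 4). They are 8 of the 16 mice in the series. The groups follow the labels of virus and surgery, and the comparison was chosen with earlier results of these data known. All 8 mice carried AAV9-cTNT-CARDINAL, an adeno-associated virus of serotype 9 in which the cardiomyocyte promoter cTNT drives the full-length mouse Cardinal sequence. The other 8 mice carried AAV9-cTNT-GFP, the same vector with a fluorescent protein, and were divided into 4 sham and 4 TAC mice. In each case the virus had been given under the skin of wild-type pups on postnatal day 1. TAC is transverse aortic constriction, in which a ligature narrows the aortic arch so that the left ventricle pumps against a raised pressure, and the sham mice had the same operation without the ligature. Male mice of 25 to 30 g were operated on, and the apex of the heart was taken 4 weeks after surgery for poly(A)-selected RNA sequencing. The promoter confines the vector RNA to cardiomyocytes, and the gene counts do not separate it from the Cardinal RNA that the mouse's own gene makes. Apex tissue holds many cell types, so fewer cells of a type and less RNA per cell cannot be told apart in these data.

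A heart that works against a raised pressure enlarges its cardiomyocytes and reactivates genes that are otherwise used before birth, among them those for skeletal α-actin and the natriuretic peptides. Fibroblasts lay down collagens and matricellular proteins, which sit in the matrix and act on cells, and the oxidation of fatty acids in mitochondria is often lowered. Cardinal has been studied as a partner of DRG1, a GTPase that acts at ribosomes and that DFRP1 (gene Zc3h15) keeps stable. The question addressed here was which of these programs still responded to TAC when Cardinal was raised, and which of the answers rested on AAV9-Cardinal TAC replicate 1, a mouse that stood apart.

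Libraries held 16441997 to 21904589 counted reads, with the lowest total in AAV9-Cardinal sham replicate 4. Mitochondrially encoded genes took 32.2% to 33.7% of the counts in AAV9-Cardinal sham mice and 31.0% to 31.9% in AAV9-Cardinal TAC mice, without overlap. With AAV9-GFP the shares were 32.8% to 34.0% in sham and 30.3% to 31.0% in TAC mice. The cardiomyocyte markers Tnnt2 and Tnni3 were among the abundant transcripts in every heart, while the atrial markers Myl7, Sln and Bmp10 and the skeletal muscle markers Myh1, Myh2, Myh4 and Tnnt3 had no count in any AAV9-Cardinal mouse. Levels are given as CPM, which are counts scaled to the size of the library, and changes as log2 fold changes ± SE with p-values adjusted over all 16857 tested genes by the Benjamini-Hochberg method. A gene was called when the adjusted p of edgeR's quasi-likelihood test was under 0.05. Fold changes of single genes without a second fit refer to all 8 mice. No source states whether mice shared a litter or a cage.

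Acta1, Nppa and Nppb, 3 widely used markers of hypertrophy, are introduced with the DNA in front of them. The windows below are from RefSeq on GRCm38.p6 and run from 250 bases before to 50 bases after the annotated start, 5′ to 3′ on the strand of the gene. Capitals mark a CArG box (the SRF binding motif), the GATA motif GATAA or the MCAT motif CATTCC, searched on both strands together with the MEF2 motif.
Acta1, skeletal muscle α-actin, chr8:123894726-123895025, minus strand: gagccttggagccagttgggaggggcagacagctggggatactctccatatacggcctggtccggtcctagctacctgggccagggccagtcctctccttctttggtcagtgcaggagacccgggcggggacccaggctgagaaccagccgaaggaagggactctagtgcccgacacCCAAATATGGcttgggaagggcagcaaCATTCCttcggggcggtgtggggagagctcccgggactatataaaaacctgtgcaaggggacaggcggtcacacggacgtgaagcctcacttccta
Nppa, atrial natriuretic peptide, chr4:148000472-148000771, plus strand: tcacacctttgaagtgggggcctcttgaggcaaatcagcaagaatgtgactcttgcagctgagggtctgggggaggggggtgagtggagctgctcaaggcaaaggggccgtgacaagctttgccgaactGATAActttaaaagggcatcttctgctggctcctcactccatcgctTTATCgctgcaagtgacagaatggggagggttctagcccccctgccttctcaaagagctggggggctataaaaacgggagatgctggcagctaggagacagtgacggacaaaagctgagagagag
Nppb, B-type natriuretic peptide, chr4:147985650-147985949, plus strand: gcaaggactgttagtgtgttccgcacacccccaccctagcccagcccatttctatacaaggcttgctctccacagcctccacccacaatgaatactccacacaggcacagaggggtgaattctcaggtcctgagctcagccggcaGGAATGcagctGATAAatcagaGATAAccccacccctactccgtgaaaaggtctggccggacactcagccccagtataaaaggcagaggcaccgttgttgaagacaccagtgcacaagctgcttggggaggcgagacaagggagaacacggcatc

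The Acta1 window held 1 CArG box, at bases -73 to -64 from the start, and 1 MCAT motif at -46 to -41. Each of the natriuretic peptide windows held 2 GATA motifs, and the Nppb window also held 1 MCAT motif on the opposite strand. No MEF2 motif was matched in the 3 windows. Of 32817 promoter windows of this length, 1.63% held a CArG box, 3.19% a MEF2 motif, 25.4% the GATA motif and 14.7% the MCAT motif. These matches describe the letters and say nothing of binding in these hearts.

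The virus itself was read first. Gm12295 (GRCm38 chr11:65277654-65365798, minus strand) was at 40.0, 30.2, 26.2 and 27.6 CPM in AAV9-Cardinal sham replicates 1 to 4. In AAV9-Cardinal TAC replicates 1, 4, 5 and 6 it was at 93.9, 18.3, 19.5 and 20.6 CPM. The 8 AAV9-GFP mice had 3.42 to 7.24 CPM, below every AAV9-Cardinal mouse. Replicate 1 of the TAC group held more Cardinal RNA than any other mouse, and the other 3 TAC mice held less than any sham mouse. The TAC change of Gm12295 was 0.30 ± 0.43 on the log2 scale with all mice (adjusted p = 0.764) and -0.67 ± 0.20 without replicate 1 (adjusted p = 0.0525), a change of sign that neither fit called. Drg1 was at 22.1 to 24.5 CPM in sham and 26.1 to 27.4 CPM in TAC mice, which did not overlap, with a log2 change of 0.19 ± 0.06 (adjusted p = 0.0594). Zc3h15 stood at 23.4 ± 1.61 CPM (SD, n = 4) in sham and 24.7 ± 0.791 CPM (SD, n = 4) in TAC hearts, with groups that overlapped. None of the 6 genes listed as Cardinal, Drg1 and their partners was called by edgeR or DESeq2, and 2 had an unadjusted p under 0.05.

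Over all genes, 522 were called higher after TAC in AAV9-Cardinal hearts (3.1% of those tested) and 570 were called lower (3.38%), together 1092. Without replicate 1 the calls rose to 644 higher (3.77%) and 792 lower (4.64%) of 17075 tested. Of the 1092 genes, 915 were called again without that mouse, each in the same direction, and 177 were lost. The same surgery in AAV9-GFP hearts gave 1431 higher (8.49%) and 1503 lower (8.92%) calls. Of the AAV9-Cardinal calls, 751 were also called in AAV9-GFP hearts, which is 68.8% of the former and 25.6% of the latter. Among the 341 called with AAV9-Cardinal only, 304 had the same direction in AAV9-GFP hearts. In 2312 genes (13.7%) the 4 TAC and 4 sham mice did not overlap. The count of calls also fell when other mice were left out, to 395 without sham replicate 2, 384 without TAC replicate 5, 511 without TAC replicate 6, 581 without sham replicate 1 and 651 without sham replicate 4. Replicate 1 was the only mouse whose removal raised it.

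Fetal and hypertrophy genes still responded, and as many were called without replicate 1. Of 16 tested members, 9 rose and none fell, with 9 and none without replicate 1 and 11 and 1 in AAV9-GFP hearts. The count was 5 without sham replicate 2. The median log2 change was 1.08 with all mice and 0.91 without replicate 1, beside a median of 0.00 over all genes. Acta1 (chr8:123891769-123894751) was at 144, 92.7, 112 and 123 CPM in the sham mice and at 1359, 687, 571 and 815 CPM in TAC replicates 1, 4, 5 and 6. It rose 7.28-fold (2.86 ± 0.24, adjusted p = 8.98e-05) and 5.87-fold without replicate 1. In AAV9-GFP TAC mice Acta1 reached 2049 to 2785 CPM, above all 4 AAV9-Cardinal TAC mice, from a sham range of 101 to 153 CPM.

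Nppb (chr4:147985788-147987205), a hormone that ventricles release under load, was at 49.5, 25.5, 65.7 and 67.7 CPM in sham mice. In the TAC mice it was at 223, 145, 178 and 268 CPM, a rise of 1.97 ± 0.43 (adjusted p = 0.0169). Its AAV9-GFP change was 1.96 ± 0.43, and the difference between the viruses was 0.01 (adjusted p = 0.998). Nppa (chr4:148000722-148002079), the companion hormone, was at 106, 44.2, 58.2 and 64.3 CPM in sham and 399, 213, 183 and 241 CPM in TAC mice. Nppa rose by 1.92 ± 0.41 (adjusted p = 0.0143) and by 3.58 ± 0.44 in AAV9-GFP hearts, where the 4 TAC mice ran from 431 to 1396 CPM. The antisense gene Gm13054 overlaps Nppa over most of its exons, and the sources used here do not state strand-specific counting, so their reads cannot be told apart. Both peptides stood clear of sham in every AAV9-Cardinal TAC mouse. The Nppa difference between the viruses was -1.66 and was not called (adjusted p = 0.359). Both calls needed sham replicate 2, without which the adjusted p was 0.0544 for Nppa and up to 0.0567 for Nppb, whose call was also lost without TAC replicate 6.

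Rcan1, a calcineurin inhibitor whose transcript is induced by calcineurin and NFAT, was at 33.7, 30.9, 45.9 and 47.2 CPM in sham mice. It was at 52.0, 75.6, 179 and 168 CPM in TAC replicates 1, 4, 5 and 6. Replicate 1 was the lowest of the 4 TAC mice here, and the change went from 1.59 ± 0.39 (adjusted p = 0.0281) to 1.84 ± 0.36 without it. The call was lost without sham replicate 1, 2 or 4 or TAC replicate 5 or 6, with an adjusted p of up to 0.0958. In the calcineurin, CaMKII and kinase list 1 of 27 genes rose, which was Rcan1 itself, and 2 fell, while without replicate 1 the counts were 2 higher and 4 lower. Those that fell with all mice were the transcription factors Mef2a (-0.42 ± 0.09), whose adjusted p reached 0.0528 without sham replicate 2 or TAC replicate 5, and Mef2d (-0.26 ± 0.05). Ankrd1, a stress-responsive Z-disc and nuclear protein, was different again. It was at 366 to 836 CPM in sham mice and at 2574, 1124, 1379 and 1424 CPM in TAC mice, and its call (1.24 ± 0.35, adjusted p = 0.0488) was lost without replicate 1 (0.93 ± 0.34, adjusted p = 0.108) and without any of 6 other mice.

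**Figure D1:**
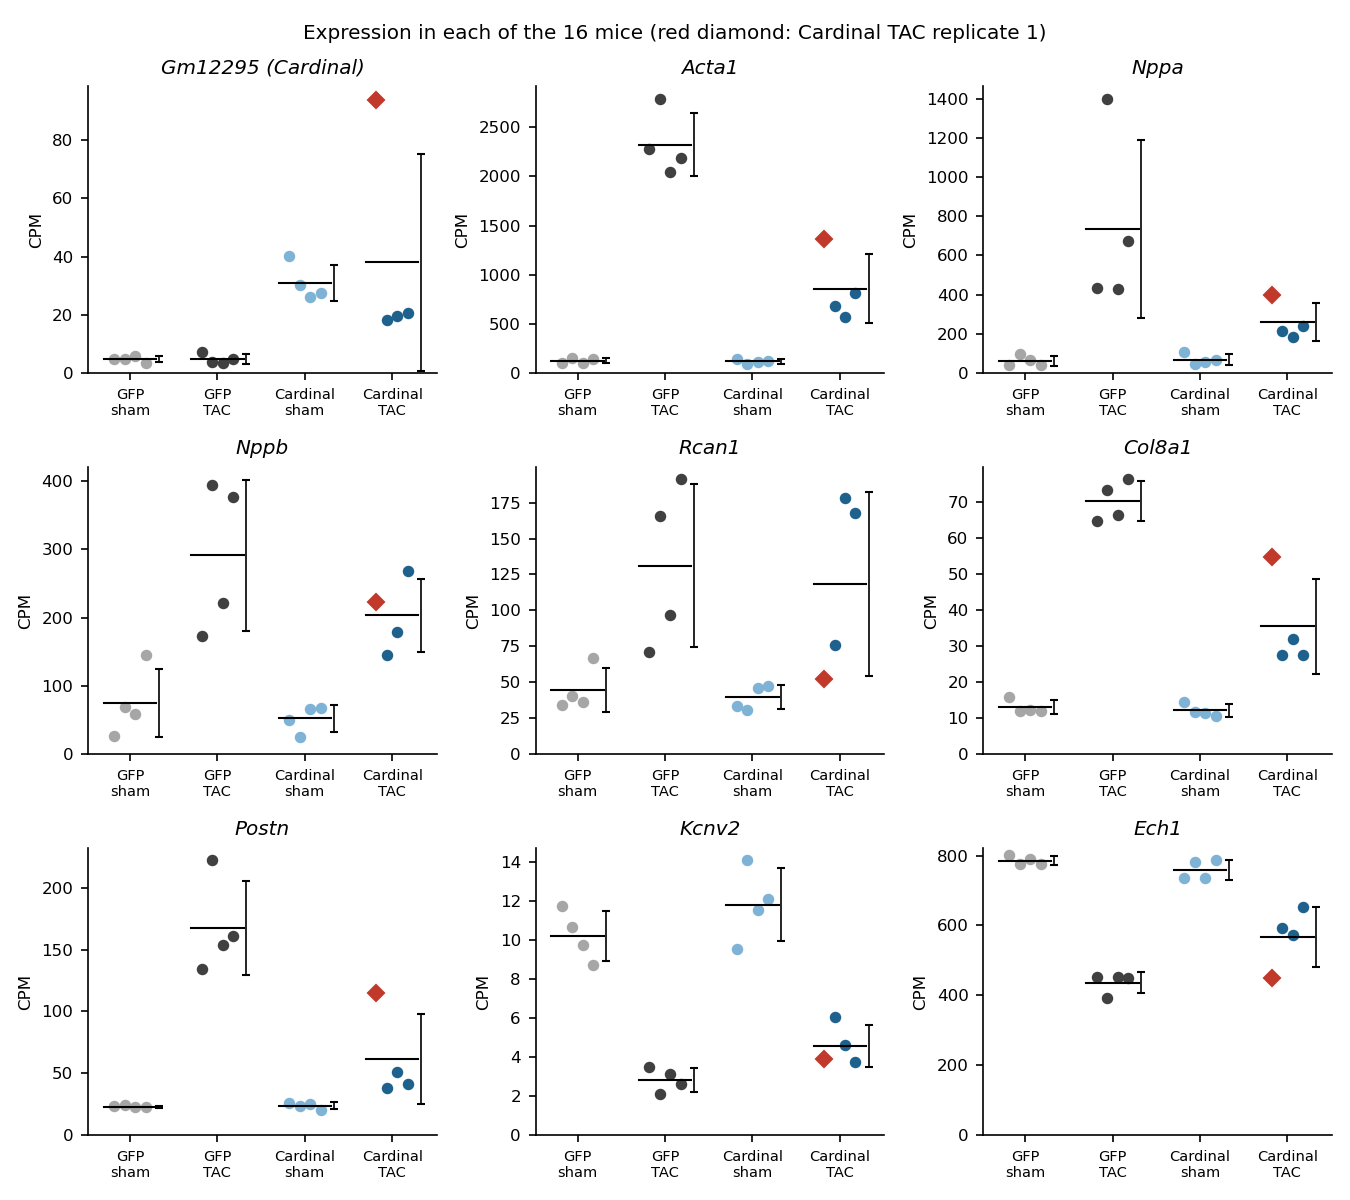
CPM of 9 genes in each of the 16 mice (1 point a mouse, horizontal line: group mean, bar: SD, n = 4), with AAV9-Cardinal TAC replicate 1 as a red diamond. Replicate 1 is the highest AAV9-Cardinal TAC mouse for Gm12295, Acta1, Nppa, Col8a1 and Postn, lies inside the group for Nppb and Kcnv2, and is the lowest for Rcan1 and Ech1.

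The main myosin heavy chains of the ventricle did not follow the fetal program. Myh7, the slow isoform, was at 3237 to 3606 CPM in sham and 3313 to 3477 CPM in TAC mice, with a change of 0.01 ± 0.06. Myh6, the fast isoform, was at 18800 to 21220 CPM in sham and 17200 to 18430 CPM in TAC mice, and its change of -0.15 ± 0.07 was not called (adjusted p = 0.205), against -0.32 ± 0.07 in AAV9-GFP hearts (adjusted p = 0.00416). Myh7 shares 15.6% of its 50-base stretches with other genes, mostly Myh6, so reads of 50 bases can be split between the isoforms. Genes on the opposite strand, among them Mhrt, overlap 13.3% of the exonic bases of Myh7. Strand-specific counting is not stated, so their reads cannot be told apart from those of Myh7.

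Of 34 tested genes of the Z-disc, the costamere and the actin cytoskeleton, which anchor the sarcomere, 11 rose and none fell. Without replicate 1 it was 14 of 35, and without sham replicate 2 it was 5. In AAV9-GFP hearts 19 of the 34 rose and 1 fell. Synpo2l, an actin-associated Z-disc protein, was at 92.5, 106, 91.9 and 99.2 CPM in sham and 174, 135, 274 and 253 CPM in TAC mice (1.10 ± 0.21, adjusted p = 0.00897). Flnc, the muscle filamin, went from 248 ± 26.3 to 489 ± 142 CPM (SD, n = 4 each), and its adjusted p was up to 0.0532 without sham replicate 2 or TAC replicate 5. Nrap, a scaffold of myofibril assembly, rose by 0.54 ± 0.09 and Pdlim5 by 0.50 ± 0.07. For these 4 genes the change in AAV9-GFP hearts was 1.57, 1.07, 0.70 and 0.44. None of the differences was called, with adjusted p from 0.62 to 0.943. The edgeR test of such differences called only 0.0119% of all tested genes with all mice, so this does not show equal responses. In tubulin genes, 4 of 13 rose and none fell, against 7 higher in AAV9-GFP hearts. No tubulin call was left without sham replicate 2. The largest of the changes, in Tuba8 (0.59 ± 0.16), had mice that overlapped. Its call was lost in 7 of the 8 fits that left out 1 AAV9-Cardinal mouse. Of 24 SRF target genes, a list that shares Acta1 and Nppa with the fetal list, 5 rose and 1 fell, and without sham replicate 2 the count was 2 higher.

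The small heat shock proteins Hspb6 and Hspb7, which bind actin and filamin in muscle, had some of the tightest changes. Hspb6 was at 559 to 640 CPM in sham and 794 to 855 CPM in TAC mice (0.48 ± 0.05, adjusted p = 0.000481). Hspb7 was at 1575 to 1733 CPM in sham and 2016 to 2467 CPM in TAC mice (0.46 ± 0.06). Together with Hspb1, they made up the 3 calls among 29 ER chaperone and heat shock genes. Hspb1 shares 48.8% of its 50-base stretches with a pseudogene and lost its call without 6 of the 8 mice. Of the 29, 28 had a positive fitted change. The median change of the list was 0.28, against -0.19 in AAV9-GFP hearts, where 3 rose and 3 fell. None of its differences between the viruses was called. That list differed among the sham mice, which had no ligature. Its mean log2 CPM, relative to the sham mean, was -0.31 and -0.25 in sham replicates 1 and 2. It was 0.49 and 0.07 in sham replicates 3 and 4, against 0.31 to 0.54 in the TAC mice. Immediate-early genes, transcription factors and regulators that rise within minutes of a stimulus, were likewise lower in sham replicates 1 and 2 (-0.31 and -0.38) than in 3 and 4 (0.32 and 0.37). Of 25, 3 were called higher, or 1 without sham replicate 1, and 8 in AAV9-GFP hearts. Whether handling of the tissue had a part in either list was not tested.

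Several of the largest rises lay outside the lists of the sarcomere and the matrix. Edn3, a peptide ligand of the endothelin receptors, was at 2.53, 1.58, 2.69 and 2.01 CPM in sham and 10.6, 12.1, 13.8 and 12.9 CPM in TAC mice. Its 5.58-fold rise (2.48 ± 0.32, adjusted p = 0.000999) was 5.86-fold without replicate 1, and its AAV9-GFP change was 1.83 ± 0.30. In the renin-angiotensin, endothelin and adrenergic list 1 of 21 genes rose, which was Edn3, and 2 fell, among them the angiotensin II receptor Agtr1a (by 0.79 on the log2 scale), and neither fall was called without sham replicate 2. Tnfrsf12a, the receptor of the cytokine TWEAK, rose by 1.92 ± 0.44, with 9.06 to 27.2 CPM in sham and 40.3 to 104 CPM in TAC mice. Spsb4, an adaptor of a ubiquitin ligase, rose by 1.82 ± 0.39, and Abra, an actin-binding protein of striated muscle, by 1.71 ± 0.48. Leaving out replicate 1 raised the last pair to 1.95 and 1.87. Without sham replicate 2 none of Agtr1a, Tnfrsf12a, Spsb4 and Abra kept its call, and TAC replicates 5 and 6 were each needed for the calls of Agtr1a, Tnfrsf12a and Abra, with adjusted p of up to 0.073, 0.0658, 0.0561 and 0.135 in that order of genes over the fits that left out 1 mouse. Agtr1a and Abra also lost their calls without sham replicate 1 or 4 or TAC replicate 4, and Tnfrsf12a without sham replicate 1.

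Potassium and calcium channel genes were among those that fell. Of 25 adult contraction, calcium handling and repolarization genes, 7 fell and 2 rose, with 7 and 3 without replicate 1 and 15 and 2 in AAV9-GFP hearts. Kcnv2, a modifier subunit of voltage-gated potassium channels (chr19:27322588-27337179), was at 9.53, 14.1, 11.5 and 12.1 CPM in sham and 3.89, 6.06, 4.61 and 3.73 CPM in TAC mice. It was 2.59-fold lower (-1.37 ± 0.17, adjusted p = 0.000953), and -1.85 ± 0.18 in AAV9-GFP hearts. Kcnd2, a pore subunit of the transient outward current, fell from 18.4 ± 2.65 to 9.98 ± 0.572 CPM (SD, n = 4 each), and its partner Kcnip2 fell from 125 ± 4.13 to 89.0 ± 10.6 CPM. Cacnb2, a subunit of the L-type calcium channel, fell by 0.69 on the log2 scale with all mice and by 0.87 without replicate 1, whose 57.6 CPM lay nearest to the sham range of 60.1 to 74.9 CPM. The sodium channel gene Scn4a also fell (-1.12 ± 0.26), from 26.7 to 37.5 CPM in sham to 12.3 to 19.5 CPM in TAC mice. The calls of Cacnb2 and Scn4a were lost without TAC replicate 5 or 6 (adjusted p up to 0.0635 and 0.0755), and that of Scn4a also without sham replicate 2 or 4 or TAC replicate 4. Without TAC replicate 5 the list had 4 genes lower.

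Collagen genes responded as well, but here replicate 1 set much of the size. Of 21 tested, 8 rose and 1 fell with all mice, 7 rose and 1 fell without replicate 1, and 20 rose and 1 fell in AAV9-GFP hearts. Without sham replicate 2 it was 5 higher. The mean log2 CPM of the list, relative to the sham mean, was 0.94 in TAC replicate 1 and 0.22, 0.40 and 0.36 in replicates 4, 5 and 6, while the 4 AAV9-GFP TAC mice ran from 0.88 to 1.09. The list median went from 0.53 to 0.27 without replicate 1, against 1.04 in AAV9-GFP hearts. Col8a1, a short-chain collagen (chr16:57624258-57754737), was at 14.6, 11.8, 11.5 and 10.6 CPM in sham and 54.9, 27.5, 32.1 and 27.4 CPM in TAC mice. It rose by 1.54 ± 0.19 (adjusted p = 0.000953) and without replicate 1 by 1.26 ± 0.12. Col5a2 rose by 0.91 ± 0.15, with 41.0 CPM in replicate 1 and 23.2 to 25.7 CPM in the other TAC mice. Col6a3 was even across the group, at 28.4 to 34.7 CPM in TAC against 12.5 to 18.5 CPM in sham mice. Col6a6, the member that fell, was at 6.53 to 9.53 CPM in sham and 3.29 to 3.82 CPM in TAC mice.

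The major fibrillar collagens did not pass the test in AAV9-Cardinal hearts, and Col1a1 and Col3a1 are given here because of their abundance, after their values were seen. Col1a1 was at 39.5 to 45.3 CPM in sham mice and at 95.5, 46.0, 49.9 and 52.4 CPM in TAC mice. Its change was 0.57 with all mice (adjusted p = 0.0881) and 0.27 without replicate 1 (adjusted p = 0.16), against 1.46 in AAV9-GFP hearts. Col3a1 was at 65.7 to 78.7 CPM in sham mice and at 249, 75.3, 87.5 and 92.5 CPM in TAC mice. Its change was 0.82 with all mice (adjusted p = 0.111) and 0.25 without replicate 1 (adjusted p = 0.266). In both genes replicate 1 lay far above the other 3 TAC mice, and in Col1a1 the lowest of them lay just above the highest sham mouse. Fn1, fibronectin, had the same order, with 56.6 CPM in replicate 1, 38.8 to 41.5 CPM in the other TAC mice and 34.3 to 40.8 CPM in sham mice, and was not called (0.26 ± 0.12, adjusted p = 0.23).

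Matricellular, elastic fiber and proteoglycan genes gave 15 of 41 higher and 2 lower, 13 and 4 without replicate 1, and 27 and 3 in AAV9-GFP hearts. Postn, periostin of activated fibroblasts (chr3:54361109-54391037), was at 26.0, 23.4, 25.2 and 20.1 CPM in sham and 115, 38.2, 51.2 and 41.5 CPM in TAC mice. It rose by 1.37 ± 0.28 (adjusted p = 0.0111) and by 0.88 ± 0.15 without replicate 1 (adjusted p = 0.00493), against 2.86 in AAV9-GFP hearts. Cilp, a matrix protein of activated fibroblasts, was at 2.23 to 3.70 CPM in sham and at 23.1, 6.81, 7.26 and 8.15 CPM in TAC mice, and rose by 2.03 ± 0.39. Vcan, the proteoglycan versican, did not follow that order: replicate 1 had 23.1 CPM beside 23.7, 32.2 and 23.4 CPM in the other TAC mice and 9.24 ± 1.09 CPM (SD, n = 4) in sham mice. Thbs1, thrombospondin 1, was at 14.4 CPM in replicate 1, inside the sham range of 3.21 to 16.9 CPM, and at 19.9 to 71.7 CPM in the other 3. Its call (adjusted p = 0.0493) was lost without 6 of the 8 mice, with an adjusted p of up to 0.193. The list had 8 genes higher without sham replicate 2.

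Among 22 collagen processing and crosslinking genes 6 rose, 4 rose without replicate 1 and none without sham replicate 2. Lox, a lysyl oxidase that crosslinks collagen, rose by 1.23 ± 0.30, with replicate 1 the lowest TAC mouse at 4.65 CPM and the others at 6.25 to 7.78 CPM, and its adjusted p was up to 0.0898 without any of 6 other mice. The TGF-beta, BMP and activin list gave 5 of 31 higher and 1 lower with or without replicate 1, and 3 higher without sham replicate 2. In that list Fstl1, a secreted follistatin-like protein, rose by 0.82 ± 0.09, with no overlap between the groups. The markers of activated fibroblasts moved with the matrix lists: 5 of 11 tested rose and none fell, with a summed level of 85.5 to 109 CPM in sham mice, 244 CPM in TAC replicate 1 and 132 CPM or more in the other TAC mice. Of 12 fibroblast markers 2 rose, with summed levels of 1296 to 1359 CPM in sham and 1245 to 1727 CPM in TAC mice, the highest again in replicate 1. The part of fibroblast number in the matrix changes was not tested. None of 14 macrophage markers and none of 12 endothelial markers was called by edgeR with all mice, while 1 and 6 had an unadjusted p under 0.05 and DESeq2 called 1 in each list. Without replicate 1, 3 endothelial markers were called higher (median 0.28), and 1 macrophage marker was called in each direction.

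**Figure D2:**
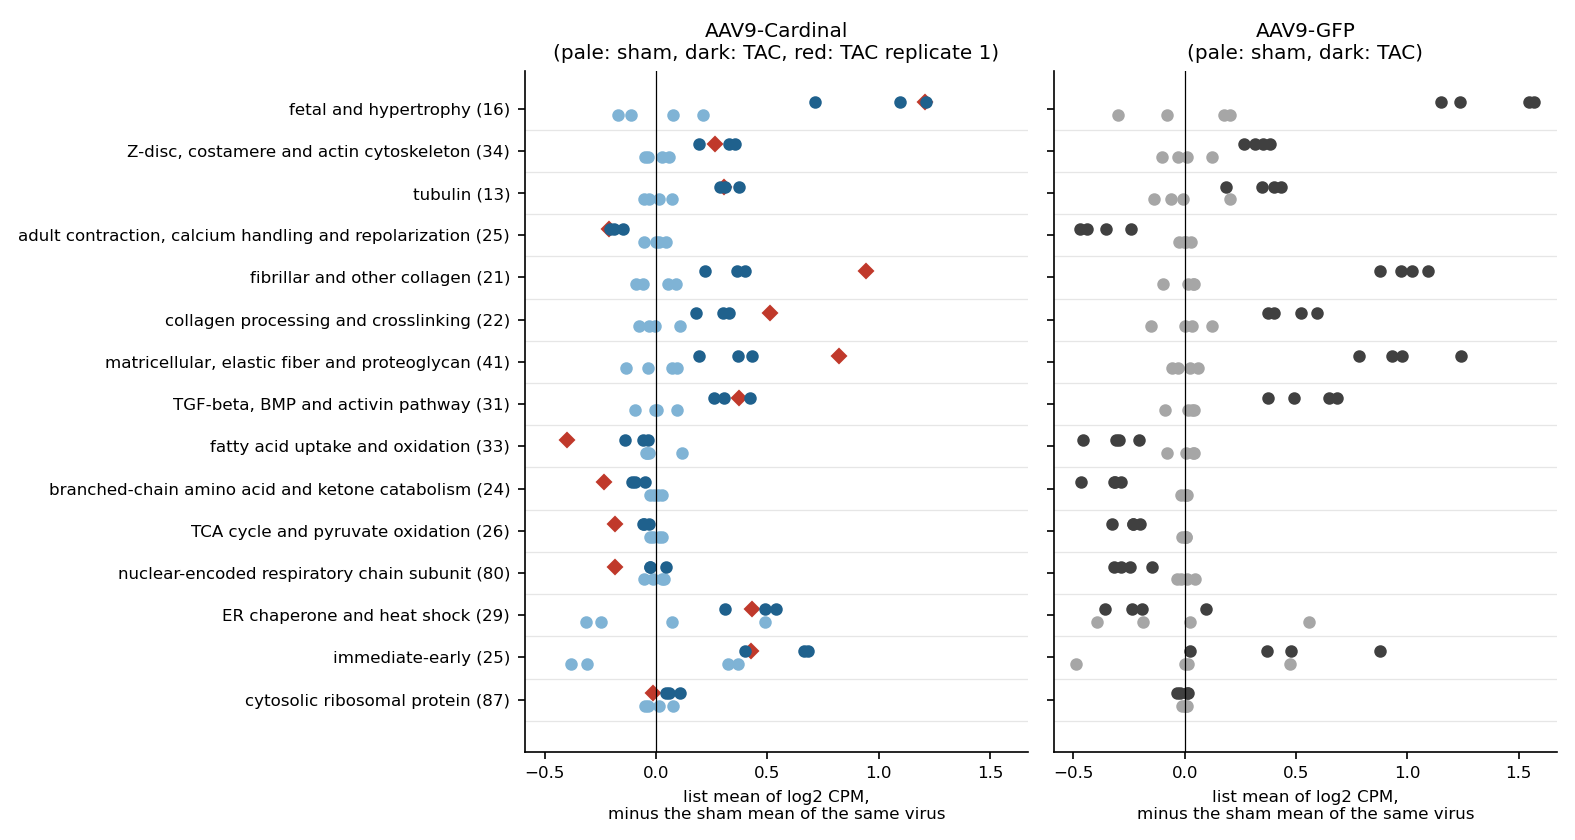
Mean log2 CPM over the tested members of 15 gene lists in each mouse, relative to the sham mean of the same virus (x axis, log2 units), with the number of genes in parentheses. In AAV9-Cardinal hearts TAC replicate 1 lies at 0.94 for collagens and -0.40 for fatty acid genes, near the AAV9-GFP TAC mice, and inside or beside its own group for fetal, Z-disc, tubulin and TGF-beta genes.

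Genes of fatty acid uptake and oxidation fell in part: 13 of 33 fell and 1 rose with all mice, 8 fell and 2 rose without replicate 1, and 25 fell in AAV9-GFP hearts. Without TAC replicate 5 it was 6 lower. The list mean was -0.40 in TAC replicate 1 and -0.14, -0.06 and -0.04 in replicates 4, 5 and 6, while the sham mice ran from -0.05 to 0.12. Ech1, an isomerase of β-oxidation, was at 735, 781, 736 and 787 CPM in sham and 450, 594, 572 and 652 CPM in TAC mice. It fell by 0.42 on the log2 scale (adjusted p = 0.0101) and by 0.32 without replicate 1 (adjusted p = 0.0064), and it was -0.85 in AAV9-GFP hearts. Slc27a1, a fatty acid transporter, was at 98.6 to 117 CPM in sham and 62.1 to 74.5 CPM in TAC mice, with the same change of -0.73 in both fits. All 4 TAC mice lay below all sham mice in both genes, and in Ech1 replicate 1 was the lowest.

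The lists of mitochondrial respiration had few or no calls in AAV9-Cardinal hearts. None of 80 nuclear-encoded respiratory chain genes was called by edgeR in AAV9-Cardinal hearts with or without replicate 1, and 60 fell in AAV9-GFP hearts. A direct test of the difference between the viruses called none of the 80 with all mice and 7 without replicate 1. In AAV9-Cardinal hearts only 12 of the 80 had a positive fitted change with all mice. With all mice 7 of the 80 had an unadjusted p under 0.05, and DESeq2 called 3 lower. The median change was -0.04 with all mice, 0.00 without replicate 1 and -0.25 in AAV9-GFP hearts. The list mean was -0.18 in replicate 1, beside -0.03, -0.03 and 0.04 in the other TAC mice and -0.05 to 0.04 in sham mice. The cardiomyocyte markers moved alongside: 1 of 10 fell and 1 rose with AAV9-Cardinal (median -0.02), and 6 fell and 1 rose with AAV9-GFP (median -0.28). Their list mean was -0.13 in replicate 1 beside 0.04, 0.01 and 0.05 in the other TAC mice, and their summed level was 46963 to 51516 CPM in sham and 44676 to 49669 CPM in TAC mice, lowest in replicate 1. Their part in the mitochondrial results was not tested. For the 13 mitochondrially encoded genes the counts were 0 with AAV9-Cardinal and 11 lower with AAV9-GFP, with medians of -0.11 and -0.27, and 5 of the 13 had an unadjusted p under 0.05 with AAV9-Cardinal, of which DESeq2 called 1. Only 1 of the 13 had a positive fitted change with AAV9-Cardinal. Their summed level was 308560 to 349650 CPM in sham and 293630 to 313180 CPM in TAC mice, with overlap. The share of counts given at the start, which did not overlap, covers all mitochondrially encoded genes of the count table and not these 13 alone. In the TCA cycle and pyruvate oxidation list 3 of 26 fell (19 with GFP), 4 without replicate 1 and 1 without sham replicate 2. Idh3g, a subunit of isocitrate dehydrogenase, was at 242 CPM in replicate 1, 286 to 291 CPM in the other TAC mice and 305 to 356 CPM in sham mice. The Idh3g call (-0.25 ± 0.06, adjusted p = 0.0273) was lost without sham replicate 2 or 4 or TAC replicate 5. In the branched-chain amino acid and ketone list 2 of 24 fell and 1 rose, 1 fell without replicate 1, none fell without sham replicate 2, and 20 fell with GFP.

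Glycolysis genes had no common direction, with 2 of 24 higher and 4 lower, 3 and 2 without replicate 1, and none lower without sham replicate 2. Pfkp, the platelet isoform of phosphofructokinase, went from 40.0 ± 4.49 to 71.1 ± 10.2 CPM (SD, n = 4 each, 0.83 ± 0.12). Pfkfb1, which makes the activator of that enzyme, fell from 20.8 ± 2.71 to 10.9 ± 0.955 CPM, a call lost without sham replicate 2 or TAC replicate 5 (adjusted p up to 0.0526). The 87 cytosolic ribosomal protein genes gave no call by edgeR or DESeq2 (12 at an unadjusted p under 0.05) and a median change of 0.05, and 1 of 31 translation factor genes rose and 1 fell, the fall being lost whichever AAV9-Cardinal mouse was left out. The integrated stress response list gave 2 of 30 higher and 1 lower, with none higher without sham replicate 1, the ubiquitin ligase and autophagy list none of 22 by edgeR (3 at an unadjusted p under 0.05, 1 by DESeq2), and the cell cycle list none of 35 higher and 3 lower. For cell cycle genes the counts were 2 higher and 4 lower without replicate 1, none lower without sham replicate 1, and 7 higher and 1 lower with GFP. Of 19 clock genes 1 fell with all mice, none fell without sham replicate 1, and without replicate 1 the count was 5 lower and 2 higher. Times of tissue collection are not given in the sources used here.

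**Figure D3:**
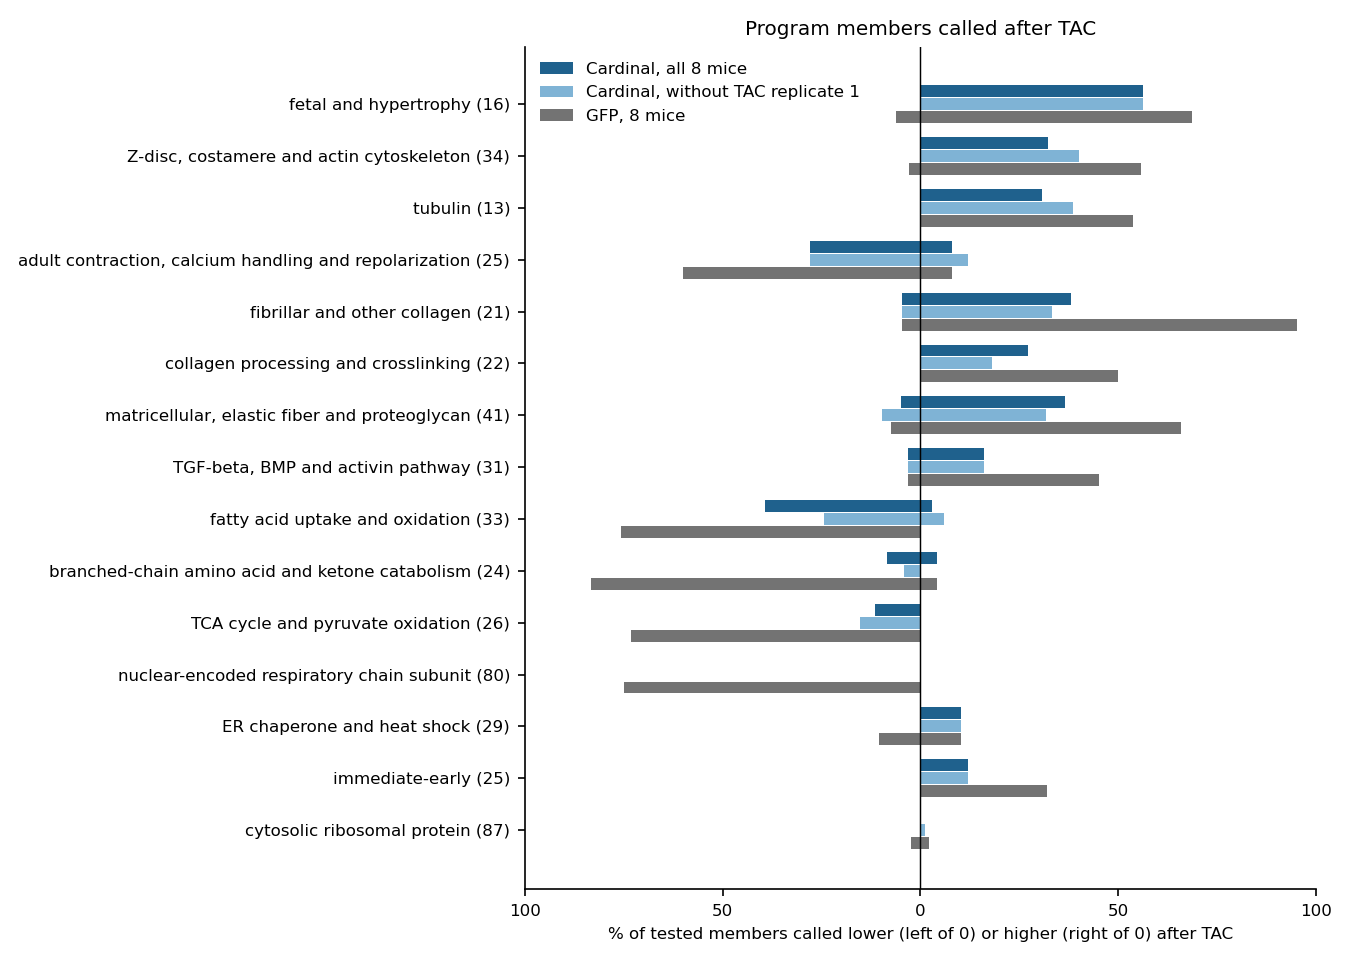
Share of the tested members of each list (in %, number tested in parentheses) called higher or lower after TAC in AAV9-Cardinal hearts with all 8 mice, in the same hearts without TAC replicate 1, and in AAV9-GFP hearts. The fetal list has 9 of 16 members higher with and without replicate 1, and the respiratory chain list has no bar for AAV9-Cardinal and 60 of 80 lower for AAV9-GFP.

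Among the remaining genes with the deepest falls, Inmt, a methyltransferase of small amines, was at 12.2, 11.5, 5.24 and 6.88 CPM in sham and 4.65, 1.55, 1.07 and 2.35 CPM in TAC mice (-1.89 ± 0.41). Cenpf, a mitotic protein, fell by 1.44 on the log2 scale, and Angpt1, a ligand of the endothelial receptor Tie2, by 1.12. Angpt1 had 27.4 CPM in replicate 1 and 12.2 to 15.6 CPM in the other TAC mice, below a sham range of 34.3 to 38.9 CPM, so replicate 1 was the least changed. Maml3, a coactivator of Notch signaling, fell by 1.36 in AAV9-Cardinal hearts and had a change of -0.06 in AAV9-GFP hearts, a difference of -1.30 that was not called (adjusted p = 0.321). Klhl33, Ston2 and Abca12 were also among the 12 largest falls. Of the genes named with Inmt, Ston2 and Abca12 were called whichever AAV9-Cardinal mouse was left out. TAC replicate 5 was needed for Inmt, Cenpf, Angpt1, Maml3 and Klhl33, sham replicate 2 for all of them but Maml3, and TAC replicate 6 for all of them but Inmt. Angpt1 and Cenpf were lost without sham replicate 1 or TAC replicate 4 as well (adjusted p up to 0.0958 and 0.103), and Angpt1 without sham replicate 4.

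In the list of largest rises, 2 are pseudogenes whose reads are uncertain. Gm15459 shares 93.8% of its 50-base stretches with other genes, mostly Hspa8, and 95.8% of its exonic bases are overlapped by the opposite-strand gene Gm26825. Gm47692 shares 21.3% of its stretches with other genes, mostly an actin pseudogene, and is itself the gene that shares most stretches with Acta1. Gm15459 was at 32.6 to 57.8 CPM in AAV9-Cardinal sham and at 152, 296, 306 and 305 CPM in TAC replicates 1, 4, 5 and 6. AAV9-GFP mice held 105 to 328 CPM in both states, so the AAV9-Cardinal sham group was the one that stood apart.

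Whether the response to TAC differed between the viruses was tested directly, as the AAV9-Cardinal change minus the AAV9-GFP change. With all 16 mice 2 genes passed (0.0119% of those tested), Gm15459 and Bub1b, which is named because it passed. DESeq2 called 137 on the same 16 mice. Bub1b, a mitotic checkpoint kinase, had no count in the 4 AAV9-GFP sham mice and 0.649 to 1.40 CPM in the AAV9-Cardinal mice. Without AAV9-Cardinal TAC replicate 1, 79 genes passed (0.463%), 43 with a negative and 36 with a positive difference. Leaving out any other of the 16 mice gave 2 or 3. By edgeR the 79 calls were made only when a mouse that stood apart in these same data was left out, and they are given as a description of the other 7 AAV9-Cardinal mice.

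Of those 79 genes, 68 had a smaller absolute change with AAV9-Cardinal, and 42 belonged to the program lists. Negative differences were found in 9 of the 21 collagens and 7 of the 41 matricellular genes, and no member of either list had a positive one. Postn differed by -1.99 (adjusted p = 0.00104 without replicate 1, 0.302 with all mice), Col1a1 by -1.19 (0.00417 and 0.309), Col8a1 by -1.18 (0.00763 and 0.312) and Acta1 by -1.67 (0.00915 and 0.302). Positive differences were found in 7 respiratory chain genes, 5 fatty acid genes, 4 TCA cycle genes and 3 branched-chain and ketone genes. Ech1 differed by 0.52 (adjusted p = 0.00915 and 0.302). Sdha and Ndufs1, respiratory chain subunits chosen after their values were seen, differed by 0.35 and 0.36. No Z-disc, tubulin or heat shock gene was among the 79, nor was Nppa (-1.95, adjusted p = 0.129), Nppb, Rcan1 or Edn3. Only 0.463% of all tested genes passed, and these lists hold 35, 13 and 29 tested genes. Their absence therefore does not show that they responded alike with both viruses.

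**Figure D4:**
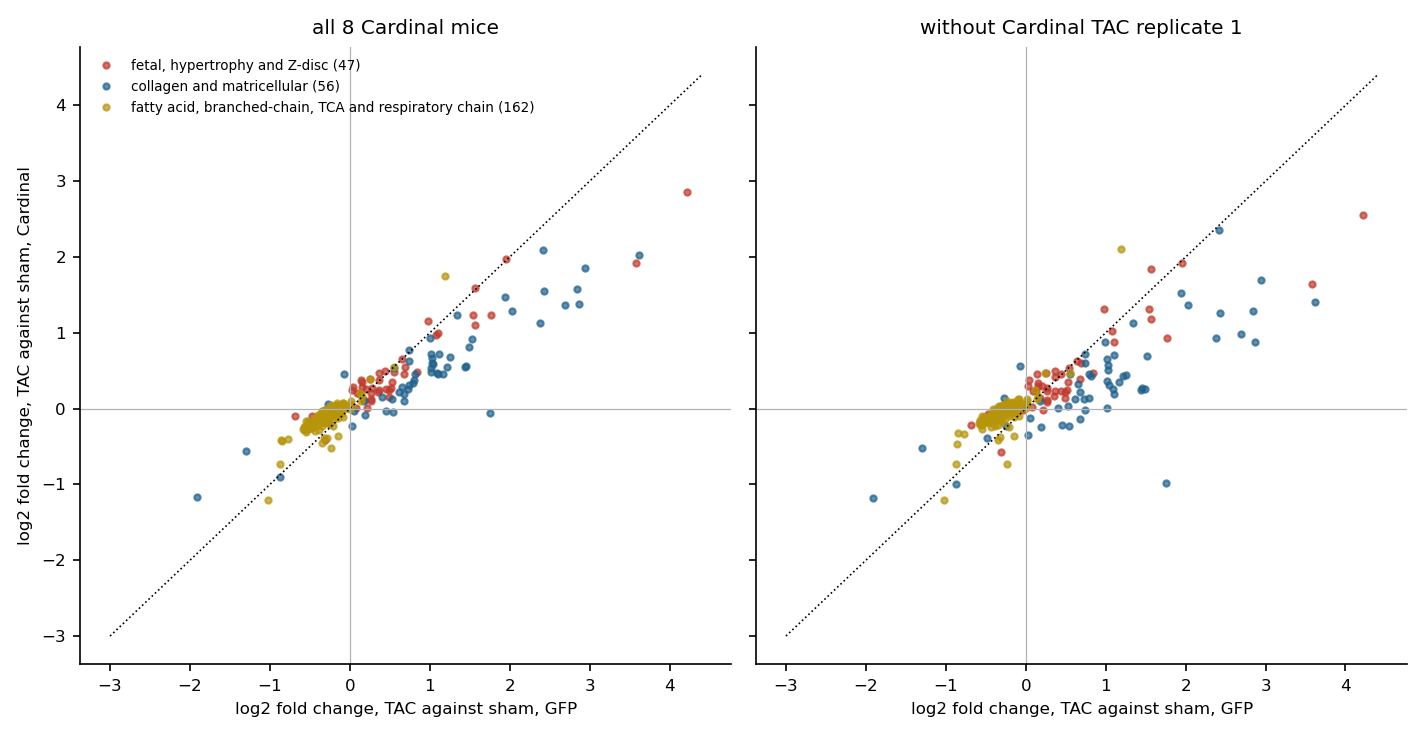
Log2 fold change after TAC in AAV9-Cardinal hearts (y axis) against that in AAV9-GFP hearts (x axis) for list genes that reached a group mean of 5 CPM, 1 point a gene, with all 8 AAV9-Cardinal mice on the left and without TAC replicate 1 on the right. The dotted line marks equal changes, and 52 of 56 collagen and matricellular genes on the left and 51 on the right had a smaller absolute change with AAV9-Cardinal. The counts were 145 and 142 of 162 fatty acid, branched-chain, TCA and respiratory chain genes, and 28 and 31 of 47 fetal, hypertrophy and Z-disc genes. The minimum of 5 CPM could be met in any of the 4 groups, so a gene could enter by its AAV9-GFP TAC level alone. The share over all tested genes was not counted. For both reasons these counts cannot be read as a result about the lists.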

How the data were processed

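Poly(A)-selected libraries were sequenced as single-end reads of 50 bases. The submitters' processing notes name FastQC, HISAT2 2.1.0, edgeR 3.26.1 and GRCm38, and the authors deposited raw counts per gene for the 16 mice. The counting tool is not given in the sources used here. No column of the table belonged to a sample outside the series. Of 55573 gene IDs, 55394 matched GENCODE M21 symbols. The counts were analyzed with edgeR 4.0.16 in R 4.3.3: expression filter over the 4 groups, TMM normalization, 1 quasi-likelihood fit over 16 mice (common biological coefficient of variation 0.128), contrasts within and between viruses, and Benjamini-Hochberg adjustment. The fit was repeated without AAV9-Cardinal TAC replicate 1 (15 mice) and was checked on simulated data. DESeq2 1.42.0, other filters and scalings, and leaving out each mouse were alternatives.

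The mice, members and gene lists (33 programs and 13 sets of cell type markers) were chosen with earlier results of these data known. Genes were named by rule. Fixed in advance were Gm12295, Drg1, Zc3h15, Nppa, Nppb, Acta1, Myh7, Myh6, Fn1 and Postn. Added were the 12 largest rises and 12 largest falls that were called with and without replicate 1, without overlap, at 5 CPM or more. Up to 4 called members of each list were also named. The last 5 were calls with replicate 1 as the most extreme TAC mouse and the highest adjusted p without it. Such calls could also be lost without other mice, as that of Ankrd1 was. Genes outside the rule are said to be so. Some genes that the rule named are not reported here. Sharing of 50-base stretches was counted against GENCODE M21 transcripts. A total of 3 counts corresponds to 0.138 to 0.183 CPM in the AAV9-Cardinal mice. P-values of edgeR set a difference of group means against the spread between these mice, estimated over the 4 groups together. Within a group, pairs of libraries differed by more than sampling noise (chi-square per degree of freedom 5.32 to 14.3), so none was a duplicate. In exact two-sided permutation tests of 4 against 4 mice, 70 labelings allow no p under 0.0286, the value for every gene whose mice did not overlap.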

Additional observations from a re-analysis of the deposited data

Results flagged for a closer look

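A mouse was marked when its gap to the nearest of its group exceeded Dixon's 95% limit for 4 values. Of 208 groups of 4 mice (104 named genes in 2 groups) 13 were marked, and chance alone marks about 1 in 20 groups. In 9 of the 13 the mouse was AAV9-Cardinal TAC replicate 1: Gm12295 at 93.9 CPM, Postn at 115 CPM, Cilp at 23.1 CPM, Col5a2 at 41.0 CPM, Col8a1 at 54.9 CPM, Fn1 at 56.6 CPM, Gm15459 at 152 CPM, Idh3g at 242 CPM and Maml3 at 3.23 CPM. The other marks were Vcan at 32.2 CPM in TAC replicate 5 and at 10.9 CPM in sham replicate 3, Adra1b at 13.7 CPM in TAC replicate 6, and Angpt1 at 34.3 CPM in sham replicate 3. In replicate 1 the highest Cardinal RNA of the series and the highest collagen levels of its group occurred in the same mouse. Their relation was not tested, since it is 1 mouse.

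The response of Gm15459 to TAC differed between the viruses by 3.20 on the log2 scale (adjusted p = 0.00981). Most of its sequence is shared with Hspa8 and other genes, and most of its exonic bases are overlapped by the opposite-strand gene Gm26825.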

How the results depend on the processing

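Libraries were of like depth except AAV9-Cardinal sham replicate 4, with 16441997 counts. Whether depth or the number of mice limits the calls was not tested. Of 98 called genes named by the rule, 39 were called in all 8 fits without 1 AAV9-Cardinal mouse, among them Acta1, Edn3, Col8a1, Postn, Kcnv2, Hspb6 and Ech1, 21 in 4 to 7 and 38 in fewer. Nppa lost its call without sham replicate 2, Nppb without sham replicate 2 or TAC replicate 6, and Rcan1 without any of sham replicates 1, 2 and 4 or TAC replicates 5 and 6. In those fits called members ranged from 5 to 11 for fetal genes, 5 to 14 for Z-disc genes, 0 to 5 for tubulins, 5 to 10 for collagens and 6 to 11 for falling fatty acid genes.

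The 1092 calls became 615 without an expression filter (297 higher, 318 lower), where 30343 genes were tested, and 137 with at least a 2-fold change. Without 1 mouse they ranged from 384 to 1436, higher calls from 178 to 644 and lower calls from 187 to 792. Without replicate 1 the 1436 calls became 950 without a filter and 219 at 2-fold. DESeq2 gave 1369, and 137 differences between the viruses in place of 2, which ranged from 2 to 79 without 1 mouse. Of the named genes, 2 reversed: Gm12295, from -0.67 to 0.53 without 1 mouse, and Myh7, from -0.0056 to 0.047.

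With the mouse number as a replicate block 31 genes were called (22 higher, 9 lower), no gene without replicate 1 (1322 at an unadjusted p under 0.05; 1661 were called by DESeq2 without the block), and 1 difference between the viruses. The AAV9-Cardinal groups share the numbers 1 and 4 only, deviations of same-numbered mice correlated at 0.13 and 0.03, and nothing in the labels pairs them, so the numbers were not taken as pairs.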
